A study of Mus musculus with 15 samples.

Results

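The 42 genes described here encode ribosome biogenesis and nucleolar proteins: factors that transcribe, modify, cleave and assemble ribosomal RNA (rRNA). The list names the genes by their roles, but it was chosen with earlier results of these data known. Of the 42 genes, 41 had a row among the 20207 genes of the tables, and all 41 were among the 10276 genes that had a count above 0 in each of the 15 samples and were tested. Noc2l was the gene without a row. All groups were NIH3T3 cells, an established line of mouse fibroblasts, carrying a stable DD-sfGFP construct, and their mRNA was sequenced. DD-sfGFP joins an FKBP-based destabilizing domain (DD) to a bright, fast-folding GFP. The small molecule Shield-1 (S1) keeps the DD folded, and the domain unfolds when S1 is taken away. The control group (stress "none", time 0) had 5 samples with S1 kept in the medium. The samples labelled "unfolded DD" were taken 45 min (3 samples), 135 min (3 samples) and 405 min (4 samples) after S1 removal. According to the study's methods the cells were sorted by flow cytometry for high GFP, and S1 was withdrawn by adding purified FKBP(F36V) protein, which binds S1, to the medium. The labels do not say whether replicates came from separate cultures, so p-values measure the spread between these samples, which may be technical.

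Ribosomes are built mainly in the nucleolus. RNA polymerase I transcribes a long rRNA precursor there, small nucleolar ribonucleoproteins (snoRNPs) of the box C/D and box H/ACA kinds guide its methylation and pseudouridylation, and separate sets of assembly factors cleave and fold it into the precursors of the small and the large subunit. The genes for these factors are highly expressed in growing fibroblasts, and nucleolar rRNA synthesis is known to be sensitive to many stresses. The comparisons address whether, and when, the transcripts of this pathway change after an unfolded protein appears in the cell. rRNA itself was not measured.

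Total counts were between 6652539 (control replicate 3) and 30258404 per sample. The cells had fibroblast transcripts at 56.4 to 6173 CPM (counts scaled to library size) for 8 markers, and the 10 epithelial, blood and endothelial markers were at most 3.94 CPM in any sample, with Hbb-b1 at 0. The libraries fell into 2 sets by the slope of log2 CPM on the GC content of the transcript. Set 2 comprised control replicate 2, 45 min replicate 3 and 405 min replicates 1, 2 and 4, where log2 CPM changed by -0.383 to 0.0311 for each 10 percentage points of GC, and set 1 comprised the other 10 samples, with slopes from -1.41 to -0.667. The study's methods describe more than 1 way of preparing libraries, whereas the labels name 1 kit for all samples. The libraries could thus not be told apart by preparation, and its part in the sets was not tested. Because 3 of 4 samples at 405 min but only 1 of 5 controls lay in set 2, each result is given from the fit with group only and from the fit with group and library set. CPM values were scaled by TMM factors.

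In the control cells the members spanned most of the range of expressed genes. RPKM is per kilobase of gene, which allows for length between genes but not for the GC dependence of the libraries. By RPKM the highest were Npm1 (nucleophosmin, a histone and ribosome chaperone of the nucleolus) at 1627 ± 373.9 RPKM and Ncl (nucleolin, an RNA-binding protein of early rRNA processing) at 462.9 ± 99.3 RPKM (SD, n = 5). These levels were above those of 99.9% and 99.2% of the tested genes. Nop56, Nop58, Ddx21, Ddx18 and Dkc1 followed, between 118.6 and 59.9 RPKM. At the other end were Polr1b at 1.78 ± 1.21 RPKM, Noc4l at 3.09 ± 2.94 RPKM and Polr1e at 3.30 ± 0.761 RPKM. Levels of Nop56 and Nop58 lay within 1 SD of each other, as did those of Ddx21, Ddx18 and Dkc1. Processed copies of Npm1 are common in the mouse genome, so its reads could be split among them, and introns of Ncl, Nop56, Nop58 and Dkc1 host snoRNA genes, so the levels of these genes are less certain. The length by which the counts of Ncl were divided was 7.12 times that for Fbl.

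Of the 41 genes, those that fell did so at 405 min, and Nip7 was also lower at 135 min in the fit with library set. At 405 min, 16 of the 41 genes were lower and 1 was higher than in control (edgeR quasi-likelihood test, Benjamini-Hochberg adjusted p under 0.05). The lower calls made up 39.0% of the genes of this pathway list against 13.4% of all tested genes, and the higher call 2.44% against 9.99%. Adding the library set to the fit gave 6 lower and 0 higher, 14.6% and 0.0% against 6.87% and 6.17% of all genes. The median log2 fold change of the 41 was -0.28 with group only and -0.22 with the library set, and that of all genes was 0.00 and -0.01. The same 6 genes were lower in both fits: Ubtf, Nop58, Dkc1, Wdr43, Ebna1bp2 and Nip7, which act in rRNA transcription, snoRNPs, and the small and the large subunit branches. All 16 genes lower in the fit with group only had negative fold changes in the other fit as well. In the fit with library set 0 genes were higher, and 1 was at an unadjusted p under 0.05 (edgeR).

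At 45 min 0 genes were higher and 0 lower in either fit (edgeR), as for 0.0% of all genes with group only and 0.0292% (higher) and 0.00973% (lower) with the library set. At an unadjusted p under 0.05 there were 0 in each direction with group only and 2 in each direction with the library set, and DESeq2 also called 0. At 135 min 0 were called with group only, against 0.564% of all genes higher and 0.895% lower, with 3 higher and 1 lower at an unadjusted p under 0.05, and DESeq2 called 1 higher. With the library set in the fit, 3 were higher (Utp20, Polr1b and Polr1a) and 1 lower (Nip7), which is 7.32% and 2.44% against 3.06% and 4.88% of all genes. With a per-library GC trend taken out instead of the library set, 0 were called in either direction, against 1.21% and 1.41% of all genes. The 4 calls with the library set depended on single libraries. Without 135 min replicate 1 or 2 there were 0 in either direction, against 1.02% and 1.17% of all genes higher and 1.19% and 1.52% lower. Without 135 min replicate 3 or control replicate 1 or 4 there were 1 higher and 0 lower (all genes 1.22% to 2.23% and 1.30% to 3.77%). Without control replicate 2 there were 4 higher and 1 lower, without replicate 3 there were 3 and 1, and without replicate 5 there were 3 and 2. The shares of all genes in these last fits were 4.23% to 4.95% higher and 5.68% to 7.15% lower.

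**Figure D1:**
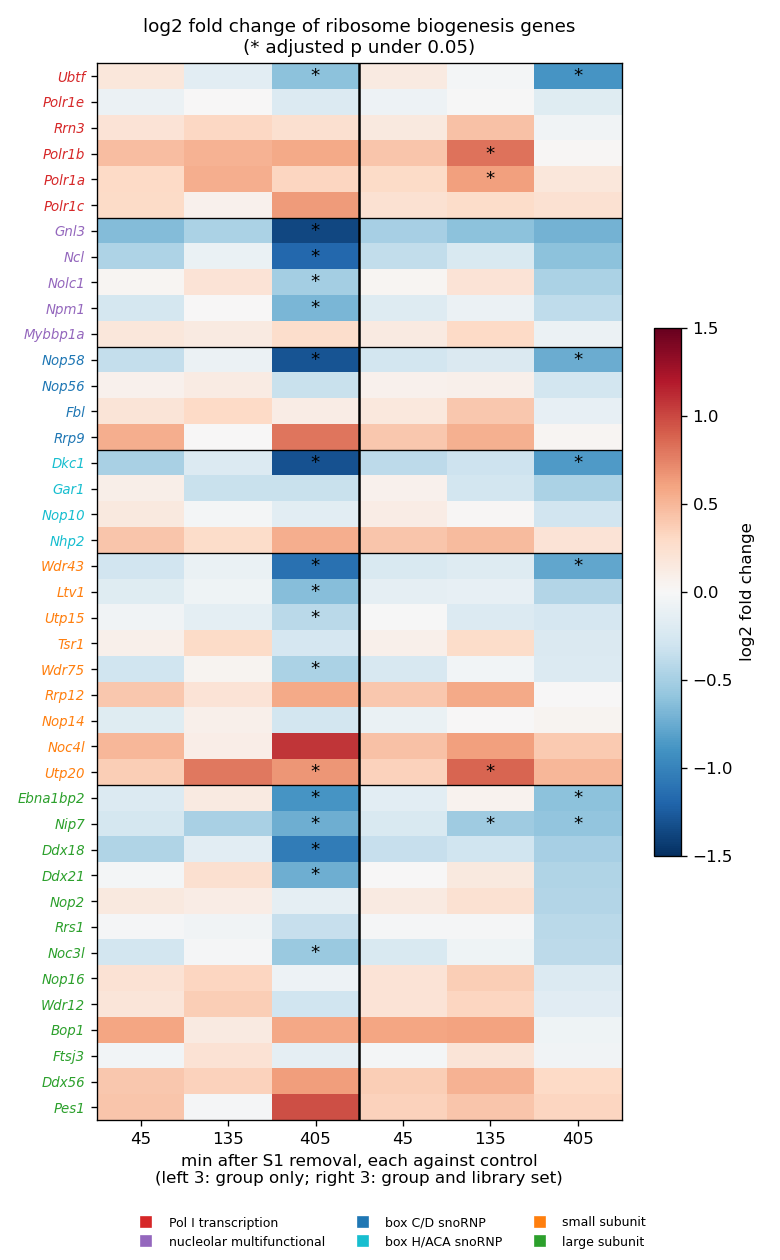
Log2 fold change of the 41 genes (rows, grouped by role in the colours of the key) at 45, 135 and 405 min after S1 removal, each against control; the left 3 columns are from the fit with group only, the right 3 from the fit with group and library set, and stars mark an adjusted p under 0.05. The left 405 min column has 16 starred blue cells and 1 starred red cell, and the right one 6 starred blue cells.

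The count of 16 at 405 min depended on single libraries. It was 5 without 405 min replicate 4, 6 without replicate 1 and 9 without replicate 2 (22.0%, against 6.12% of all genes). It was 10 without control replicate 4 (24.4%, against 7.99%), and 12 to 16 without any other (29.3% to 39.0%, against 8.78% to 23.9%). In the fits with the fewest, 12.2% (without replicate 4) and 14.6% (without replicate 1) of the 41 genes were lower, against 5.14% and 5.36% of all genes. The single higher call became 9 without control replicate 2, where the share of 22.0% was near the 24.5% of all genes called higher, 3 without 405 min replicate 3 (7.32%, against 14.6%), and 0 without control replicate 1 or 4 or 405 min replicate 1, 2 or 4. With the library set in the fit, the lower count was 1 without 405 min replicate 3, which is the set 1 library of that time (2.44%, against 2.04% of all genes), 4 without replicate 4 (9.76%, against 5.14%), 11 without replicate 2, and 14 and 11 without control replicates 3 and 5. Nop58, Dkc1, Wdr43, Ebna1bp2 and Nip7 were called in all 9 fits with group only that each left out 1 library, and Ubtf in 7. With the library set Ubtf was called in all 9, Dkc1, Wdr43 and Ebna1bp2 in 8, Nip7 in 7 and Nop58 in 5. None of these genes was called in every such fit of both kinds.

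Among the 6 genes of RNA polymerase I transcription, 1 was lower and 0 higher at 405 min in each fit. Ubtf encodes the upstream binding factor that holds rRNA gene repeats in their open, transcribed state (chr11:102165874-102178601, mm9). Its levels were 181, 272, 156, 154 and 156 CPM in the controls, 214, 176 and 230.3 at 45 min, 162, 165 and 166 at 135 min and 134, 129.5, 92.3 and 122 at 405 min. All 4 samples at 405 min lay below every sample of the other groups, and control replicate 2, of library set 2, was the highest. The log2 fold change at 405 min was -0.62 (SE 0.18, adjusted p = 0.0253) with group only and -0.88 (SE 0.12, adjusted p = 0.000149) with the library set. The level was 57% of the control mean within library set 1 (1 sample against 4) and 47.4% within set 2 (3 samples against 1). Without single libraries the fold change ranged from -0.91 to -0.72 in the fit with library set, with adjusted p of at most 0.00553 (edgeR). With group only it ranged from -0.70 to -0.44, and 7 of 9 such fits kept the call.

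The catalytic subunits of the polymerase were not called lower at any time in either fit, and their difference from Ubtf was not tested. Polr1a, the largest subunit, was at 201, 247, 105, 187 and 197 CPM in the controls, 254, 219 and 222 at 45 min, 282, 273 and 270.1 at 135 min and 271, 267, 196 and 206 at 405 min. The 3 samples at 135 min lay above every control, and those at 405 min overlapped the controls. At 135 min the log2 fold change was 0.62 (SE 0.18, adjusted p = 0.0497) with the library set and 0.55 (SE 0.21, adjusted p = 0.271) with group only. Polr1b, the second-largest subunit, was at 11.9, 27.7, 6.62, 13.7 and 12.9 CPM in the controls, 19.4, 16.1 and 25.0 at 45 min, 20.5, 22.0 and 20.7 at 135 min and 32.8, 23.7, 10.8 and 19.9 at 405 min. At 135 min it lay above the 4 controls of set 1 and below control replicate 2. Its log2 fold change there was 0.82 (SE 0.24, adjusted p = 0.0447) with the library set and 0.52 (SE 0.38, adjusted p = 0.642) with group only. Each of these calls was kept in 3 of 8 fits that left out 1 library. At 405 min neither gene passed the test, with log2 fold changes of 0.32 and 0.57 with group only and 0.17 and 0.02 with the set. Rrn3, the factor that recruits the polymerase to rRNA promoters, was at 117, 176, 68.7, 119 and 133 CPM in the controls, 133, 125 and 168 at 45 min, 145, 159.5 and 153 at 135 min and 166, 164, 108 and 142 at 405 min. The groups overlapped, and its log2 fold changes of 0.24 and -0.05 at 405 min did not pass. Polr1c and Polr1e, further polymerase subunits, had values of 0.64 and -0.21 at 405 min with group only, which did not pass either.

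**Figure D2:**
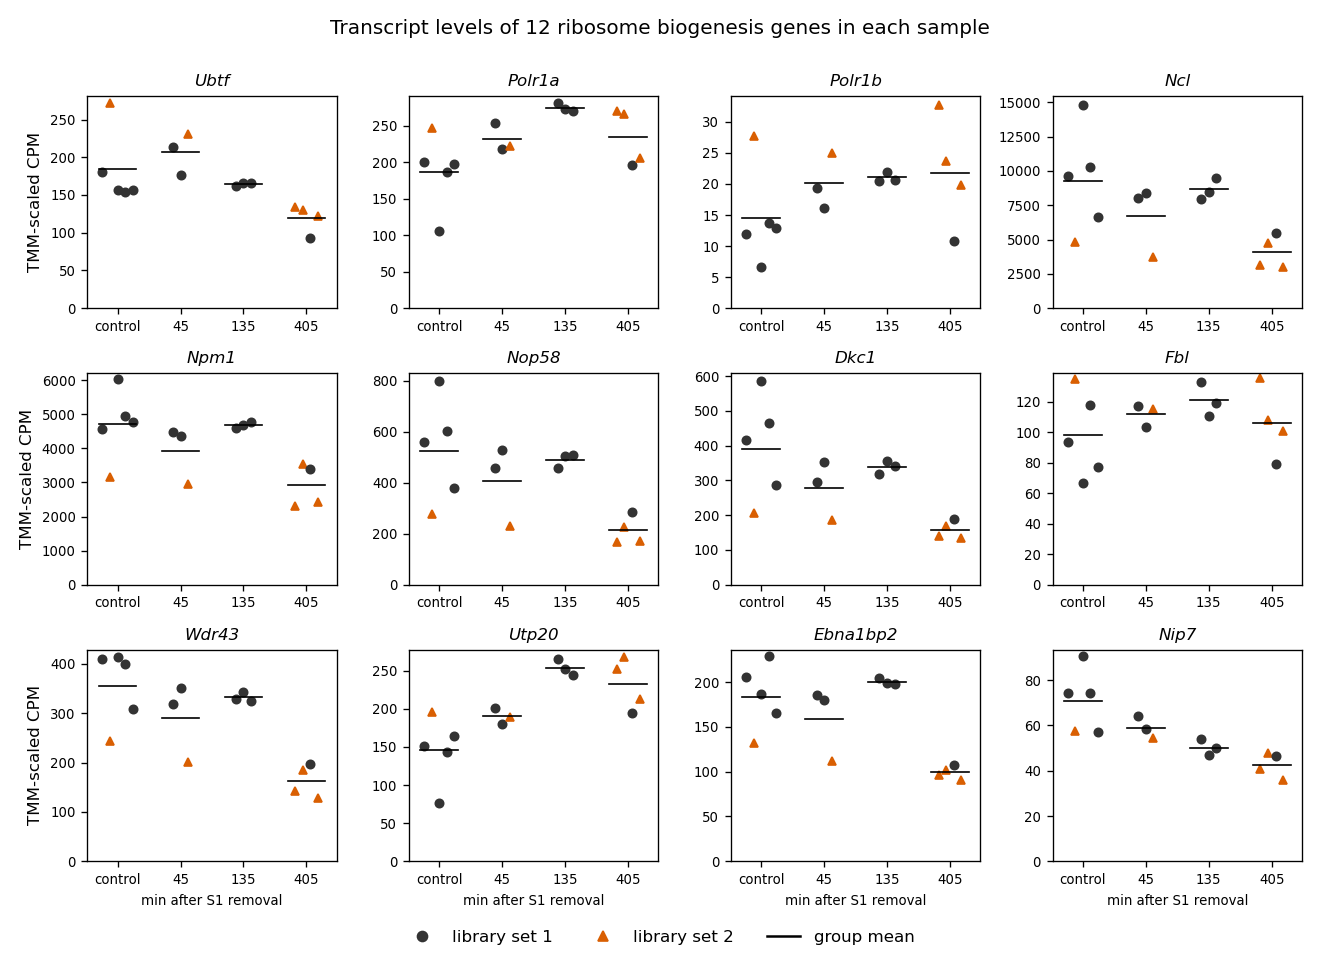
TMM-scaled CPM (linear axes from 0) of 12 of the genes in every sample, by group (control and min after S1 removal); circles are library set 1, triangles library set 2 and lines group means. Ubtf, Dkc1, Wdr43, Ebna1bp2 and Nip7 at 405 min lie below every control, while Nop58, Ncl and Npm1 at 405 min overlap the set 2 control.

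Of the 5 multifunctional nucleolar genes, 4 were lower at 405 min with group only and 0 with the library set. Ncl was at 9612, 4850.5, 14845, 10304 and 6614 CPM in the controls, 8025, 8411 and 3712 at 45 min, 7974, 8468 and 9517 at 135 min and 3163, 4725, 5464 and 3016 at 405 min. The 405 min samples lay below the 4 controls of set 1, but replicate 3 was above control replicate 2. The log2 fold change was -1.18 (SE 0.32, adjusted p = 0.0204) with group only and -0.62 (SE 0.23, adjusted p = 0.093) with the set. Npm1 was at 4577, 3157, 6028, 4965 and 4782 CPM in the controls, 4482, 4377 and 2955 at 45 min, 4584, 4699 and 4782 at 135 min and 2318, 3549, 3409 and 2422 at 405 min. Here 405 min replicates 2 and 3 were above control replicate 2, and the fold changes were -0.69 (SE 0.20, adjusted p = 0.0271) and -0.38 (SE 0.16, adjusted p = 0.125). Gnl3, the nucleolar GTP-binding protein nucleostemin, was at 198, 80.0, 354, 196 and 125 CPM in the controls, 129, 164 and 70.0 at 45 min, 136, 137 and 135 at 135 min and 63.7, 69.6, 106 and 56.0 at 405 min. It had the most negative fold change of the list with group only, -1.37 (SE 0.36, adjusted p = 0.0179), and -0.71 (SE 0.26, adjusted p = 0.0891) with the library set, and its controls alone ran from 80.0 to 354 CPM. Nolc1, a snoRNP chaperone that shuttles between nucleolus and cytoplasm, was at 521, 475, 380.0, 467 and 352 CPM in the controls, 518, 470.3 and 355 at 45 min, 518, 499 and 506 at 135 min and 331, 346, 293 and 263 at 405 min. All samples at 405 min were below every control and every 135 min sample, with fold changes of -0.51 (SE 0.15, adjusted p = 0.0273) and -0.48 (SE 0.16, adjusted p = 0.0548). Mybbp1a, a nucleolar protein that binds transcription factors, had 0.26 and -0.09, and did not pass.

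In the box C/D snoRNP, which methylates rRNA, 1 of 4 genes was lower. Nop58, a core protein of the particle (chr1:59741850-59768354, mm9), was at 562, 276, 799.8, 604 and 379 CPM in the controls, 459.5, 531 and 232 at 45 min, 459.6, 505 and 510.0 at 135 min and 166, 228, 286 and 173 at 405 min. Each library set showed the lower level at 405 min, at 48.8% of control in set 1 and 68.4% in set 2, and pooled the groups overlapped because 405 min replicate 3 lay above control replicate 2. The log2 fold change was -1.30 (SE 0.30, adjusted p = 0.00946) with group only and -0.75 (SE 0.21, adjusted p = 0.0236) with the set, where 5 of 9 fits without 1 library kept the call. Nop56, its partner in the particle, was at 591, 528, 303, 571 and 412 CPM in the controls, 579.5, 536 and 390.5 at 45 min, 507, 538 and 518 at 135 min and 362, 405, 414 and 345 at 405 min. The 405 min values lay within the control range and the fold changes of -0.33 and -0.27 did not pass. Fbl, fibrillarin, the methyltransferase itself, was at 93.4, 135, 66.4, 118 and 77.4 CPM in the controls, 117, 103 and 115 at 45 min, 133, 110.5 and 119 at 135 min and 135, 108, 79.1 and 101 at 405 min. Its fold changes were 0.11 (SE 0.20, adjusted p = 0.692) and -0.12 (SE 0.18, adjusted p = 0.705), which did not pass and differ in sign. With a per-library GC trend taken out, the fold change of Fbl was -0.43 (SE 0.15, adjusted p = 0.0487). Rrp9, a protein of the U3 snoRNP, had 0.80 with group only and 0.03 with the set, and did not pass.

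In the box H/ACA snoRNP, which converts uridine to pseudouridine, Dkc1, the pseudouridine synthase dyskerin (chrX:72341255-72355109, mm9), was likewise the 1 of 4 genes that was lower. It was at 415, 207, 586, 464 and 286 CPM in the controls, 295, 354 and 187 at 45 min, 319, 357 and 340.2 at 135 min and 139, 170.0, 188 and 134 at 405 min. All samples at 405 min lay below every sample of the controls and of 135 min. Relative to controls of the same set, the level was 43% in set 1 and 71.3% in set 2. The log2 fold change was -1.31 (SE 0.27, adjusted p = 0.00454) with group only and -0.85 (SE 0.21, adjusted p = 0.0132) with the set. The partners Gar1 and Nop10 had -0.33 and -0.16 with group only and -0.47 and -0.29 with the set, and Nhp2 had 0.54 and 0.21. None of these partners passed in either fit.

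Of the 9 factors of the small subunit branch, 4 were lower and 1 higher at 405 min with group only, and 1 lower and 0 higher with the set. Wdr43, a WD-repeat protein of the small subunit processome that acts early on the rRNA precursor (chr17:71965555-72008371, mm9), was at 409, 244, 415, 400.2 and 309 CPM in the controls, 319, 351 and 201 at 45 min, 328, 344 and 326 at 135 min and 143, 184, 198 and 129 at 405 min. All samples at 405 min were below all others, at 51.7% of control in set 1 and 62.3% in set 2. The fold change was -1.12 (SE 0.20, adjusted p = 0.00222) with group only and -0.78 (SE 0.14, adjusted p = 0.00162) with the set, and 8 of 9 fits of the latter kind without 1 library kept the call. Ltv1, an export and maturation factor of the small subunit, was at 84.2, 75.4, 139, 89.0 and 78.4 CPM in the controls, 93.3, 84.0 and 69.5 at 45 min, 90.1, 83.3 and 94.5 at 135 min and 47.7, 66.2, 72.4 and 52.9 at 405 min. It did not overlap the controls at 405 min, with fold changes of -0.64 (SE 0.19, adjusted p = 0.0288) and -0.44 (SE 0.18, adjusted p = 0.118). Wdr75 and Utp15, further processome proteins, had -0.48 and -0.41 with group only, which passed, and -0.21 and -0.25 with the set, which did not.

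Utp20, a large scaffold protein of the same branch (chr10:88209353-88289559, mm9), went the other way. It was at 152, 196, 76.4, 144 and 165 CPM in the controls, 200.5, 180.1 and 189 at 45 min, 265, 252 and 244 at 135 min and 252, 268, 194 and 213 at 405 min. The 135 min samples lay above every control, and at 405 min 3 samples did so while replicate 3 was just under control replicate 2. At 135 min the fold change was 0.87 (SE 0.19, adjusted p = 0.012) with the set and 0.79 (SE 0.22, adjusted p = 0.102) with group only, and at 405 min it was 0.66 (SE 0.20, adjusted p = 0.0296) with group only and 0.50 (SE 0.20, adjusted p = 0.107) with the set. The call at 135 min was kept in 6 of 8 fits that left out 1 library and that at 405 min in 4 of 9. Relative to controls of the same library set its level at 405 min was 145% and 125%. Noc4l and Rrp12, assembly factors of the small subunit, had fold changes of 1.07 and 0.57 with group only and 0.39 and 0.01 with the set with SEs of 0.31 to 0.52, and did not pass. Nop14 and Tsr1 did not pass against control either, with -0.28 and -0.25 with group only and 0.04 and -0.22 with the set.

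Of the 13 factors of the large subunit branch, 5 were lower with group only, 2 of them also with the library set, and 0 were higher. Ebna1bp2, an early assembly factor (chr4:118293421-118300379, mm9), was at 205, 132, 187, 229 and 165 CPM in the controls, 185, 180.0 and 112 at 45 min, 204, 198 and 198 at 135 min and 96.3, 102, 108 and 90.5 at 405 min. All samples at 405 min lay below all others, with a mean of 99.2 ± 7.43 CPM (SD, n = 4). The fold change was -0.89 (SE 0.17, adjusted p = 0.00368) with group only and -0.61 (SE 0.14, adjusted p = 0.00723) with the set. Nip7, a factor of precursor processing (chr8:109580777-109583145, mm9), was at 74.2, 57.6, 90.8, 74.3 and 57.3 CPM in the controls, 64.0, 58.4 and 54.3 at 45 min, 53.9, 47.0 and 49.9 at 135 min and 40.8, 47.8, 46.7 and 35.7 at 405 min. Its samples were already below every control at 135 min, where the fold change was -0.53 (SE 0.15, adjusted p = 0.041) with the set and -0.49 (SE 0.17, adjusted p = 0.227) with group only. At 405 min it was -0.73 (SE 0.16, adjusted p = 0.00669) with group only and -0.59 (SE 0.16, adjusted p = 0.0198) with the set.

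The RNA helicases of the branch were split. Ddx18 was at 334, 168, 477, 332 and 265 CPM in the controls, 269.5, 291 and 130.5 at 45 min, 276, 286 and 285 at 135 min and 122, 158, 217 and 113 at 405 min. The 405 min samples overlapped only control replicate 2, through 405 min replicate 3, and the fold changes were -1.05 (SE 0.29, adjusted p = 0.0225) and -0.50 (SE 0.17, adjusted p = 0.0729). Ddx21, which also binds rRNA genes, was at 821, 536, 657, 743 and 618 CPM in the controls, 775, 779 and 429.8 at 45 min, 785, 819 and 786 at 135 min and 365, 472, 473 and 322 at 405 min. It was below every control at 405 min, with fold changes of -0.73 (SE 0.19, adjusted p = 0.0173) and -0.45 (SE 0.15, adjusted p = 0.0595). Ddx56 had 0.63 and 0.30 and did not pass. Noc3l passed with group only (-0.56) and not with the set (-0.39).

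Bop1, Pes1 and Wdr12 form the PeBoW complex that matures the large subunit rRNA, and none of them passed at 405 min against control. Bop1 was at 29.6, 89.9, 12.2, 27.0 and 36.4 CPM in the controls, 55.7, 41.8 and 80.0 at 45 min, 52.5, 36.0 and 41.0 at 135 min and 85.1, 66.0, 26.4 and 57.8 at 405 min. Pes1 was at 44.1, 115, 20.6, 33.3 and 48.4 CPM in the controls, 63.0, 42.7 and 105 at 45 min, 54.5, 53.4 and 47.9 at 135 min and 123, 118, 50.4 and 119 at 405 min. In these genes the samples of library set 2 were higher than those of set 1 in every group that held both. The fold changes of Bop1 were 0.58 (SE 0.44, adjusted p = 0.32) with group only and -0.07 (SE 0.28, adjusted p = 0.902) with the set. Those of Pes1 were 0.97 (SE 0.41, adjusted p = 0.0918) and 0.32 (SE 0.22, adjusted p = 0.367). Wdr12 was at 116, 96.9, 87.7, 113 and 116 CPM in the controls, 126, 132 and 103 at 45 min, 148, 142 and 121 at 135 min and 85.8, 91.2, 96.9 and 71.9 at 405 min. It had fold changes of -0.30 and -0.17. Nop2, Nop16, Rrs1 and Ftsj3 had fold changes between -0.35 and -0.08 with group only and between -0.44 and -0.05 with the set, and did not pass.

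Levels at 405 min were next compared with controls of the same library set only. For 21 of the 41 genes the set 1 sample lay below all 4 set 1 controls and all 3 set 2 samples below the set 2 control, which is 51.2% against 15.2% of all tested genes. The opposite held for 2 genes, Pes1 and Utp20, which is 4.88% against 16.4%. Without regard to library set, 10 genes (24.4%, against 6.43% of all genes) had all 4 samples below all 5 controls, and 0 (against 6.75%) had them all above. These 10 were Ubtf, Nolc1, Dkc1, Utp15, Wdr43, Ltv1, Noc3l, Ebna1bp2, Nip7 and Ddx21. At 135 min 4 genes (9.76%, against 4.79%) had all samples above all 5 controls, namely Polr1a, Utp20, Tsr1 and Wdr12, and Nip7 (2.44%, against 4.75%) had them all below. Against the controls of set 1 alone, which held all 3 samples at 135 min, 11 genes (26.8%, against 14.6%) lay above every set 1 control and Nip7 (2.44%, against 14.8%) lay below. The counts of the 41 genes were also summed, as a percent of the library size of tested genes scaled by its TMM factor. This sum was 1.45% to 2.77% in control, 1.22% to 1.96% at 45 min, 1.97% to 2.14% at 135 min and 1.01% to 1.40% at 405 min. It is not a share of the raw counts. Ncl and Npm1 carry most of this sum. In bulk RNA, fewer cells of a type and less RNA per cell cannot be told apart, and CPM does not show a change in total RNA.

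**Figure D3:**
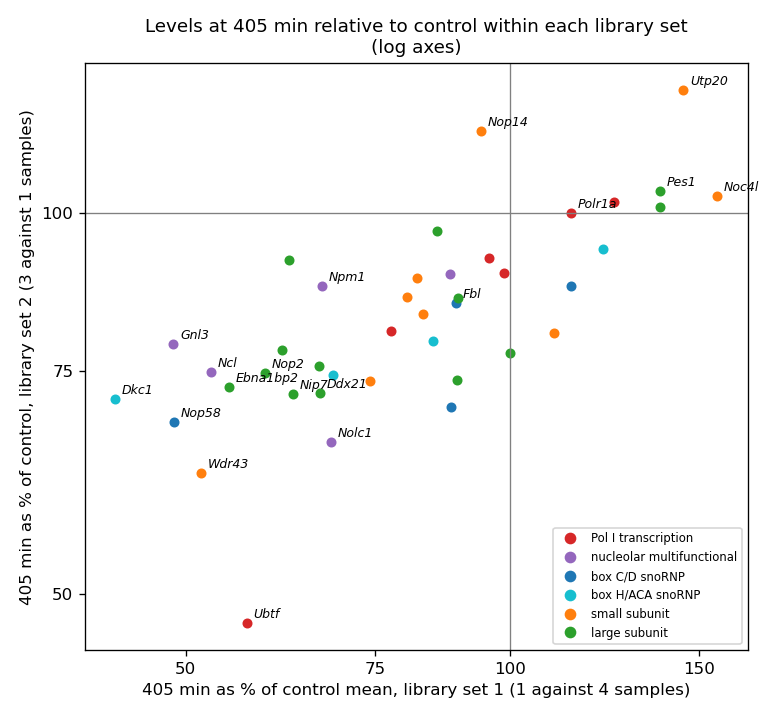
Level at 405 min as a percent of the control mean of the same library set, for the 41 genes coloured by role: set 1 (1 sample against 4 controls, x axis) and set 2 (3 samples against 1 control, y axis), both axes logarithmic. Most genes lie left of and below 100% on the axes; Ubtf is the lowest in set 2 at 47.4%, and Utp20, at 145% and 125%, is the highest in set 2.

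The fold changes at 405 min went with the GC content of the transcripts, as they did over all genes. Exonic GC content of the 41 genes was between 40.2% and 58.3% with a median of 49.2%, beside a median of 49.1% over all tested genes. Of 22 genes under 50% GC, 14 were lower and 1 was higher with group only, and of 19 at or above 50% GC, 2 were lower (Ubtf and Nolc1) and 0 higher. These were 5 and 0, and 1 and 0, with the library set in the fit. Pearson's r between GC content and log2 fold change was 0.65 over the 41 genes and 0.43 over 9853 genes with group only, and 0.40 and 0.15 with the set. At 135 min r was 0.23 and 0.03 with group only, and 0.55 and 0.24 with the set. At 45 min, where 0 of the 41 were called, r was 0.73 and 0.40 with group only, and 0.72 and 0.33 with the set. These correlations are across genes that share the same libraries, and describe the fits only. At 57.8% GC, Ubtf stood at the end of the range where few genes were lower, and its fold change was more negative with the library set than without it. When the GC trend of each library was instead taken out by an offset in the fit with group only, 16 genes were again lower and 1, Utp20, higher at 405 min (39.0% and 2.44%, against 16.2% and 11.4% of all genes), with a median log2 fold change of -0.27. Of these 16, 12 were also lower without the offset, among them all 6 that were lower with the library set. Noc3l, Npm1, Utp15 and Wdr75 were no longer called, and Rrs1, Gar1, Nop2 and Fbl, of 52.5% to 56.4% GC, were added. The fold change of Ubtf was -1.19 (SE 0.14, adjusted p = 3.51e-05) with the offset. The number of lower calls thus differed between these ways of treating the libraries, 6 with the library set and 16 with the offset.

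**Figure D4:**
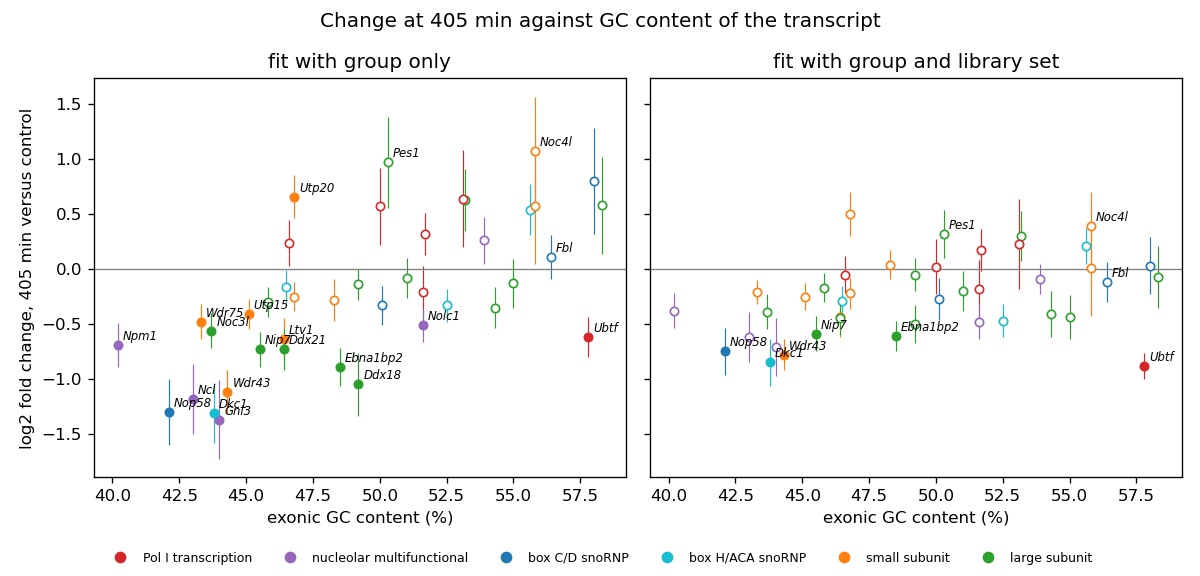
Log2 fold change at 405 min against control (y axis, bars are SE) by exonic GC content in % (x axis) for the 41 genes coloured by role; the left panel is the fit with group only, the right panel the fit with group and library set, and filled points have an adjusted p under 0.05. On the left, 14 of the 16 filled points below 0 lie under 50% GC; on the right 6 filled points remain, with Ubtf at 57.8% GC.

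Between 135 and 405 min, 8 of the 41 genes were lower and 0 higher with group only (edgeR), which is 19.5% and 0.0% against 2.82% and 2.24% of all genes, with 0 higher at an unadjusted p under 0.05 and 0 by DESeq2. They were Nop58, Dkc1, Wdr43, Ebna1bp2, Ddx21, Nolc1, Wdr12 and Tsr1, with log2 fold changes from -1.20 (Nop58) to -0.54 (Tsr1). Tsr1, a late factor of the small subunit, was at 166, 144, 133, 162 and 122 CPM in the controls, 167, 159 and 134 at 45 min, 173, 184 and 177 at 135 min and 126, 140.1, 117 and 106 at 405 min. Its 135 min samples were above every control and its 405 min samples overlapped the controls. Wdr12 showed the same order of groups. With the library set, 2 genes were lower, 4.88% against 2.01% of all genes, and 0 higher against 1.66%: Ubtf at -0.86 (SE 0.14, adjusted p = 0.00453) and Ebna1bp2 at -0.65 (SE 0.16, adjusted p = 0.0346). The fold change was negative for 40 of the 41 genes in this fit, with a median of -0.39 beside 0.02 over all genes. No 135 min sample was in set 2, so within the sets only the 1 sample of set 1 at 405 min could be compared, and there 0 of the 41 passed, as did 0 of all 10276 genes (edgeR; 15 of the 41 lower and 0 higher at an unadjusted p under 0.05). Leaving out any of the 3 samples at 135 min or 405 min replicate 4 gave 0 calls with group only, where 0.224% to 0.525% of all genes were lower. Leaving out 405 min replicate 1, 2 or 3 gave 1, 4 and 11 lower (2.44%, 9.76% and 26.8%, against 0.991%, 1.40% and 5.85% of all genes). When the library set was included, the fits without 1 library gave 0 to 4 lower. The lowest was without 405 min replicate 3 (against 0.0971% of all genes) and the highest without replicate 2 (9.76%, against 1.90%). Without any single 135 min sample or 405 min replicate 4 there was 1 (2.44%, against 0.477% to 1.02%). The comparisons at 135 and 405 min share the 135 min samples or the controls.

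A wider list of 109 other genes of the pathway, of which 106 had a row and 105 were tested, gave 4 higher and 22 lower at 405 min with group only, and 2 higher and 3 lower with the library set. With group only the lower share was 21.0%, above the 13.4% of all genes, and with the library set it was 2.86%, below the 6.87% of all genes. The higher shares were 3.81% and 1.90%, against 9.99% and 6.17%. Their median log2 fold changes were -0.18 and -0.13. Among small subunit factors 7 of 42 were lower, led by Pno1 (-1.60, SE 0.44, adjusted p = 0.0219) and Esf1 (-1.58, SE 0.45, adjusted p = 0.0247), and 2 were higher, Ddx47 (0.79) and Nol6 (0.78). Among large subunit factors 10 of 38 were lower, led by Bxdc2 and Pa2g4 (-1.35 each), and 2 were higher, Wdr18 (1.80) and Pelp1 (0.51). Of 12 polymerase I genes 2 were lower, Znrd1 (-0.87) and Polr1d (-0.60), and of 13 subunits and cofactors of the RNA exosome, which trims rRNA precursors, 3 were lower, led by Exosc6 (-0.85) and Exosc3 (-0.80). With the library set Lyar (-0.88, adjusted p = 0.00935), Mphosph10 (-0.86, adjusted p = 0.016) and Las1l were lower and Ddx47 (0.62, adjusted p = 0.0161) and Wdr18 higher. At 45 min 0 of the 105 passed in either fit (edgeR), and at 135 min 0 passed with group only and 2 higher (Wdr18 and Mdn1; 1.90%, against 3.06%) and 3 lower (Znrd1, Polr2k and Ddx55; 2.86%, against 4.88%) with the set.

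Promoter sequences were read for the genes that had one in RefSeq (GRCm38.p6, 250 bases before to 50 after a start), 36 of the 41. The E-box CACGTG, a site known to be bound by MYC and related factors, was looked for on both strands, since ribosome biogenesis genes are textbook targets of MYC. It was found in at least 1 promoter window of 8 of the 36 genes (22.2%), against 12.4% of 7161 tested genes and 8.09% of all 27025 genes with a promoter. The 8 were Rrn3, Mybbp1a, Utp20, Wdr43, Ltv1, Tsr1, Pes1 and Nop2. Of these, Wdr43 and Ltv1 were lower and Utp20 higher at 405 min with group only, so in that fit a match went with either direction or none. With the library set, Wdr43 alone of the 8 was called at 405 min, as lower. CCAAT was found in 14 of 36 (38.9%, against 43.8% of the tested genes). It was also looked for on both strands, and any overlap with an E-box was allowed. Windows of Wdr43 and Ubtf, from 250 bases before to 30 after the start, are shown because these genes were lower at 405 min in both fits and differ in their motifs. Capitals mark the E-box in Wdr43, at base 18 after the start (chr17:71615965-71616244, plus strand), and CCAAT in Ubtf, 141 bases before the start (chr11:102320833-102321112, minus strand), in the most upstream of its 6 windows. A match is a description of the letters and not a measured binding site.
Wdr43: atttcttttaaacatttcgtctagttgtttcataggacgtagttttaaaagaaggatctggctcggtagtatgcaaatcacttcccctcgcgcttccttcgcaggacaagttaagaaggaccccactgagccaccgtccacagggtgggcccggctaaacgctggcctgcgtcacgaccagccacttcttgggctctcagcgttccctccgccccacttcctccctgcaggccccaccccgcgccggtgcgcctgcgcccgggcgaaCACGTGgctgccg
Ubtf: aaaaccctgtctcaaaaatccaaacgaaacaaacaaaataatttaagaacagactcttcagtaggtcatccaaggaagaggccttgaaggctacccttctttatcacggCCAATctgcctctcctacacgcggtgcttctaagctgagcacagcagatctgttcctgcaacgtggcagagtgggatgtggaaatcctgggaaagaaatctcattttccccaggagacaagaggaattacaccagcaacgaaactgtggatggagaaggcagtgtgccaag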

How the data were processed

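mRNA-seq was carried out on 15 samples of NIH3T3 cells (5 control, 3 at 45 min, 3 at 135 min, 4 at 405 min). According to the study's methods, reads were mapped to mm9 and quantified against RefSeq on DNAnexus; the aligner is not given in the sources used here. The values deposited by the authors were expected counts, of which 8.7% to 15.6% of genes per sample held a fraction; they were rounded, although the design had assumed whole counts. RPKM values deposited by the authors were used only for levels between genes. A Z score and a ratio (RPKM scaled within each sample), also deposited by the authors, were not used.

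Genes needed a count of at least 1 in all samples, after the study's methods (10276 of 20207 passed). TMM factors and a quasi-likelihood model with group (edgeR 4.0.16, R 4.3.3) were fitted to all samples, with Benjamini-Hochberg adjustment over all tested genes and a threshold of 0.05. The SE was the absolute log2 fold change over the square root of F. Library sets were found by 2-means clustering of GC slopes, from exons of GENCODE vM1 on NCBIM37, which is mm9; 95.9% of tested genes had a GC value. Alternatives included DESeq2 1.42.0, other filters, a GC offset, the library set and leaving out each sample. Scripts were tested on simulated data. No pair of replicates agreed within sampling noise (chi-square per degree of freedom from 12.0 to 274.4 over 22 pairs). Depth sets the counting error, and low genes such as Polr1b are the least precise.

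The gene list, the wider pathway list and the tests were chosen with earlier results of these data known. Values in every sample are given for up to 12 called genes per comparison and direction, by size of change, and for 12 genes whatever their result (Ncl, Npm1, Fbl, Nop56, Nop58, Dkc1, Bop1, Pes1, Polr1a, Polr1b, Rrn3 and Ubtf). Genes of the wider list are named only when called, at most 2 per role and direction.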

Additional observations from a re-analysis of the deposited data

Results flagged for a closer look

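In 3 of 52 groups of 4 or 5 samples tested among the named genes, 1 sample lay far from the others, by its gap to the nearest sample over the range of the group; about 1 in 20 such groups would be flagged by chance. Control replicate 3, the shallowest library, was high for Ltv1 (ratio 0.787), control replicate 2, of library set 2, was high for Ubtf (0.771), and 405 min replicate 3, the only one of its time in library set 1, was low for Pes1 (0.922). The change from control differed between 405 and 135 min, by the test of that difference in the fit with group only (edgeR, adjusted p under 0.05), for Nop58 (log2 difference -1.20), Dkc1 (-1.10), Wdr43 (-1.02), Ebna1bp2 (-1.01), Ddx21 (-0.97), Nolc1 (-0.72), Wdr12 (-0.66) and Tsr1 (-0.54). Of these 8, Ebna1bp2 alone also passed with the library set in the fit.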

How the results depend on the processing

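The counts of called genes are given as higher and lower. At 135 min against control (0 and 0), DESeq2 gave 1 higher (2.44%, against 1.57% of all genes). The library set as covariate gave 3 and 1 (7.32% and 2.44%, against 3.06% and 4.88%). Library set 1 alone gave 2 higher (4.88%, against 2.11%). The replicate block with the library set gave 1 and 1 (2.44% each, against 2.29% and 3.76%). At 405 min (1 and 16), 0 were higher with no filter, with only the compared groups, with the library set, and with the replicate block alone or with the set. The shares of all genes higher in these fits were 3.24% to 6.17%. The lower count there was 6 with only the compared groups (14.6%, against 4.53% of all genes) and 6 with the library set (14.6%, against 6.87%). It was 6 with the replicate block (14.6%, against 4.54%) and 8 with block and set (19.5%, against 6.23%). Within set 1 and within set 2, where 1 group held 1 sample, the median log2 fold changes of the 41 were -0.28 and -0.3. For 405 against 135 min (0 and 8), only the compared groups gave 1 and 17 (2.44% and 41.5%, against 16.6% and 12.3% of all genes). The lower count was 5 with filterByExpr (12.2%, against 2.02%), 3 with no filter (7.32%, against 0.633%) and 2 with the library set (4.88%, against 2.01%). It was 0 with the replicate block (against 0.0973%) and 2 with block and set (4.88%, against 1.15%). Within set 1, where 405 min held 1 sample, the median log2 fold change of the 41 was -0.5. Leaving out each sample in turn with group only gave 0 to 1 higher at 135 min, 0 to 9 higher and 5 to 16 lower at 405 min, and 0 to 11 lower between 135 and 405 min. The same with the library set, an alternative chosen after seeing the data, gave 0 to 4 higher and 0 to 2 lower at 135 min, 0 to 1 higher and 1 to 14 lower at 405 min, and 0 to 4 lower between the times. The cause of these changes was not tested. None of the genes called in a comparison changed direction there under an alternative. Of the genes not called at 405 min, Bop1, Fbl, Mybbp1a, Nop14 and Rrn3 changed sign between group only and the library set. Same-numbered samples did not deviate together (mean r -0.11 over 19 pairs, against 0.03 over 64 differently numbered pairs). Deviations also went with the library set (mean r 0.16 within a set and -0.17 between sets), which could mask a pairing. Whether the numbers pair samples therefore cannot be told from these correlations. A fit within set 2 at 135 min could not be made, since no sample of that time was in set 2.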

Other observations

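Control replicate 2 was at over 2 times the mean of the other 4 controls for 9 of the 41 genes and at under 0.5 times for 5. The highest ratios were those of Noc4l (3.76), Rrp9 (3.65), Bop1 (3.42), Pes1 (3.14) and Rrp12 (3.02), and the lowest those of Gnl3 (0.367), Ncl (0.469), Nop58 (0.472), Dkc1 (0.473) and Ddx18 (0.478). Ubtf, with a ratio of 1.68, was high in this library and low at 405 min in both sets.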
